A study of Drosophila melanogaster with 9 samples.

Results

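The genes described here are 55 ligands, receptors and close partners of the Wnt, Hedgehog, BMP/activin, EGF, FGF, PVF, JAK/STAT and insulin or Torso pathways of the fruit fly, a set given by name. Of the 16364 genes counted in each library, 53 were matched to these names by their FlyBase identifiers, and wg and btl were not analysed here. The 53 comprise 25 ligands, 18 receptors and 10 other genes that process a ligand, inhibit a receptor or act just below one.

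These pathways carry signals between neighbouring cells. A secreted or membrane-tethered ligand binds a receptor on the receiving cell, and the receptor acts through a kinase cascade, a SMAD or STAT protein, β-catenin or the Gli factor Ci to change transcription. Several targets are inhibitors of the same pathway, so their transcripts are widely used as readouts of signalling. In the larval fly brain such signals are known to act on neuroblasts, glia and newborn neurons.

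Intermediate neural progenitors (INPs) are the transit-amplifying daughters of type II neuroblasts, and they pass through a young Dichaete (D+), a middle-aged Grainyhead (Grh+) and an old Eyeless (Ey+) state. The study sorted INPs of the 3 states and asked which genes differ between them. All wild-type INPs carried UAS-cd8::tdTomato under erm-GAL4, an INP driver, together with D::GFP, Grh::GFP or Ey::GFP. The D fusion sits in the D locus, whereas the Grh and Ey fusions are extra copies on inserted BACs. Brains came from wandering larvae of the third instar, and the largest cells with the most tdTomato and GFP were sorted, so the sort reads protein whereas the libraries read poly(A) RNA. Each state had 3 libraries. The labels do not say whether these came from separate crosses or days, so p-values measure only the spread between the libraries.

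Counts on genes ranged from 11266164 to 23184025 per library. Levels are given as RPM, counts per 1000000 of a library's TMM-scaled total, and genes are ranked by level as RPM per kb of exon. Classes of level, thresholds and some comparisons between genes use plain RPM, which takes no account of exon length. The 7 neuroblast and INP markers were above 10 RPM in all 9 libraries and summed to 4423 to 5318 RPM. Within this sum, erm averaged 212 RPM in D+, 98.3 in Grh+ and 46.4 in Ey+ INPs. In the same order insc averaged 578, 335 and 282 RPM and dpn 207, 338 and 358 RPM. The means of ase, wor, mira and pros varied less. D was highest in the D+ libraries (242 to 394 RPM) and ey in the Ey+ libraries (635 to 758 RPM). However, ey was already at 427 to 579 RPM in Grh+ libraries (log2 fold change against Ey+ -0.44, edgeR adjusted p = 0.869). The paper also reports high ey mRNA in Grh+ INPs. The transcript of grh was at 522 to 745 RPM in Grh+ and at 218 to 516 RPM in Ey+ libraries, while the GFP sorted on marks the protein. The names of the D+ libraries carry another flow cell than those of the other 6, so sequencing run and state cannot be told apart in any comparison with D+ INPs. In bulk samples, moreover, fewer cells of a type and less RNA per cell cannot be told apart.

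Libraries of the same state differed for the signalling genes. Of the 50 genes that passed the filter on low counts, 12 (24%) were more than 2-fold higher in Ey+ replicate 1 than in the mean of the other 2 Ey+ libraries, against 9.55% of all 10193 genes tested (1 RPM added to both sides). In Grh+ replicate 2 the number was 10 (20%, against 10.7% of all genes). D+ replicate 2 was the opposite, with 16 genes (32%) at less than 0.5 times the mean of its partners, against 17% of all genes. In Ey+ replicate 3, 13 genes (26%, against 8.91%) were below 0.5 times the mean of its partners, and in D+ replicate 1, 8 genes (16%, against 8.43%) were more than 2-fold above it. In the text that follows, calls that depend on a single library are given with and without it.

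**Figure D1:**
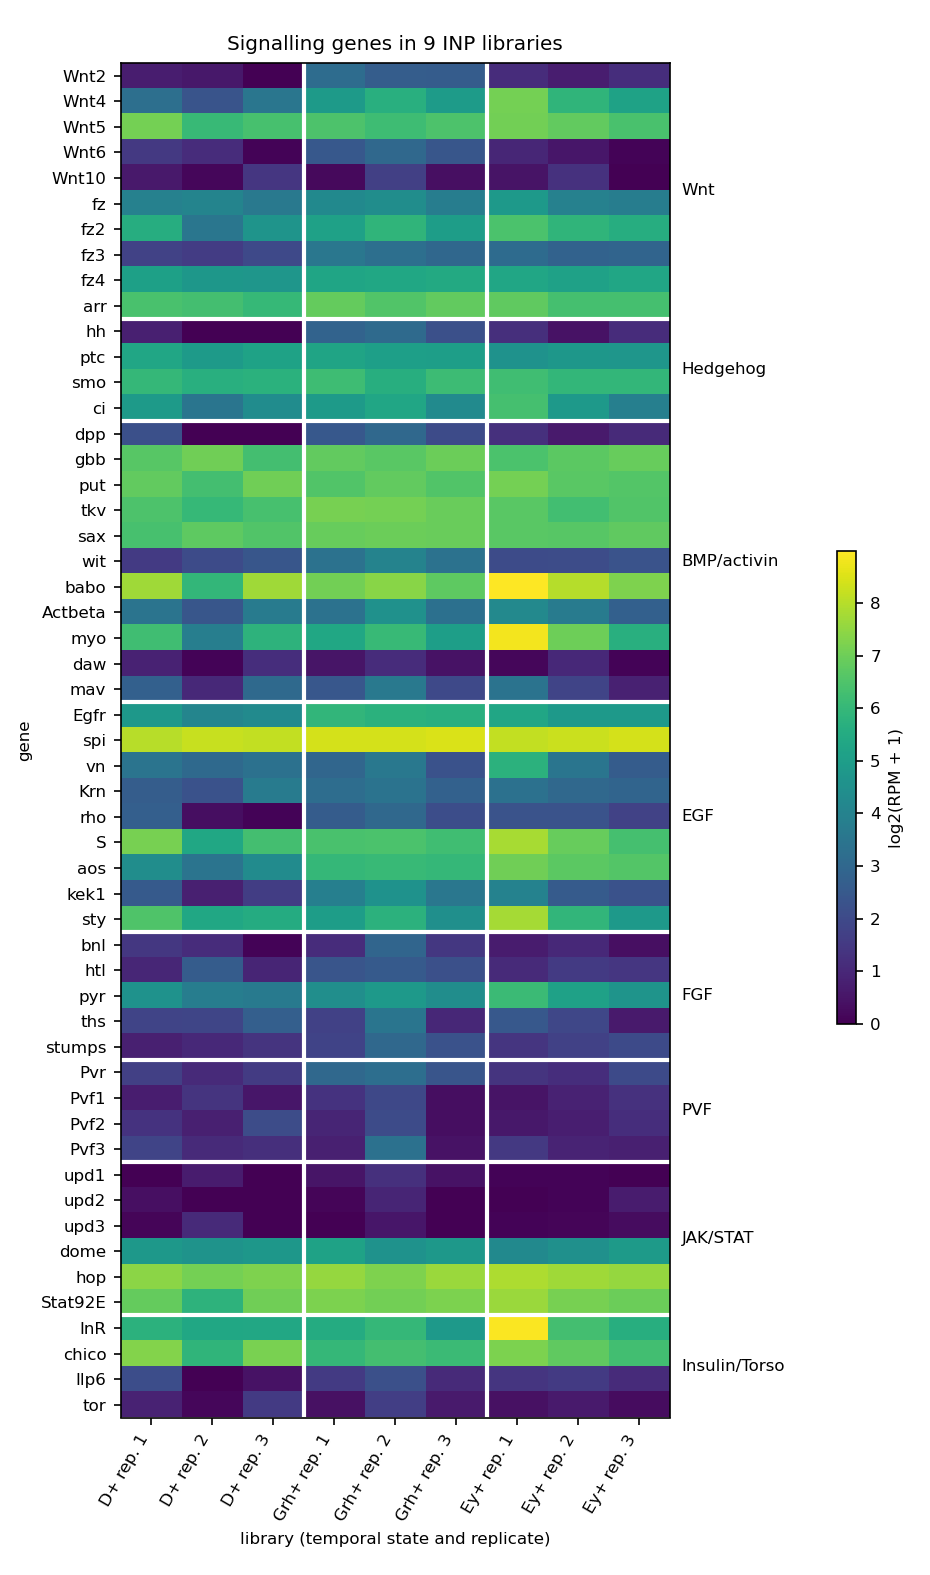
Level of the 53 signalling genes (rows, by pathway) in each of the 9 libraries (columns, by state), as log2(RPM + 1) on a colour scale. A few genes, such as spi, gbb, tkv and hop, are high everywhere, 12 of the 25 ligands average 1 to 10 RPM and 5 at most 1 RPM, and InR and myo are far higher in Ey+ replicate 1 than in its partners.

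Receptors were measured at higher levels than ligands. Over all 9 libraries, 13 of 18 receptors but 8 of 25 ligands averaged more than 10 RPM, and the median level per exon length was 5.75 RPM per kb for receptors and 0.802 RPM per kb for ligands. The gene with the most transcript per kb was a ligand all the same. This was spi, the main EGF ligand, at 171 RPM per kb, followed by gbb, a BMP ligand, at 62.9 and babo, the activin receptor, at 38.9 RPM per kb. Of the 53 genes, 17 averaged more than 50 RPM, 11 lay between 10 and 50, 19 between 1 and 10, and 6 at 1 RPM or less. The 3 genes that failed the filter were upd1, upd2 and upd3, the ligands of the JAK/STAT pathway.

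**Figure D2:**
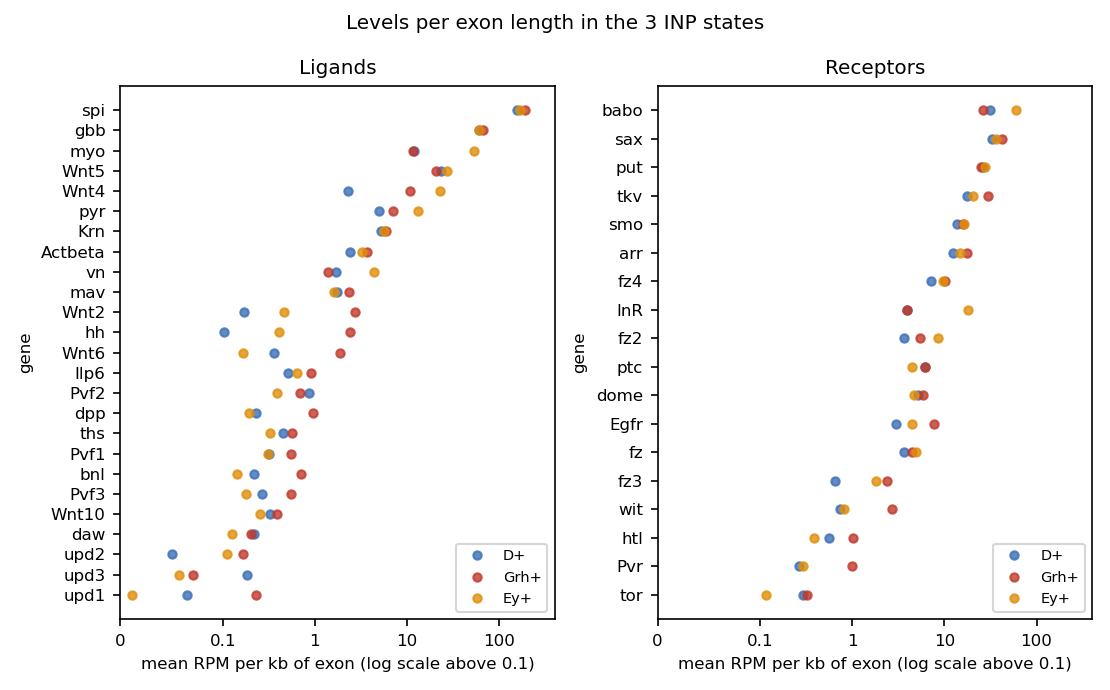
Mean level of each ligand (left) and receptor (right) in the 3 states, in RPM per kb of exon on an axis that is logarithmic above 0.1. The 3 points of spi lie at 155 to 189 RPM per kb, whereas the median ligand averages 0.802 RPM per kb over all libraries.

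Changed genes are those with a more than 2-fold difference (log2 fold change beyond 1 or -1), an adjusted p under 0.05 in edgeR's quasi-likelihood test (Benjamini-Hochberg over all genes tested) and a state mean over 10 RPM. In Grh+ against D+ INPs, 4 of the 50 genes tested changed, Wnt4, wit, Egfr and aos, against 3.11% of all genes tested. All 4 were higher in Grh+ INPs, a direction called in 1.68% of all genes. Between Ey+ and D+ INPs, Wnt4 and aos changed, both higher in Ey+ INPs (2 of 50, against 3.94% of all genes and 1.65% called higher). Between Grh+ and Ey+ INPs none changed, against 0.235% of all genes. In this comparison 13 of the 50 had an unadjusted p under 0.05, against 859 of all 10193 genes. DESeq2, which called more of all genes here than edgeR did, called 2 of the 50. These were wit (log2 fold change 1.72, adjusted p 0.00212) and InR (-2.23, adjusted p 0.0414). Against the mean of D+ and Ey+ INPs, Egfr and wit were higher in Grh+ INPs (2 of 50, against 0.961% of all genes and 0.912% called higher). These comparisons share libraries and are not independent of each other. The counts were small enough for single libraries to matter. Without Grh+ replicate 1 or 3, 1 gene was called between Grh+ and D+ INPs, and without Grh+ replicate 2 or Ey+ replicate 2 there were 2. Between Ey+ and D+ INPs, 4 genes were called without D+ replicate 1 and 4 without Ey+ replicate 3.

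More of the signalling genes lay above 0 than below it between Grh+ and D+ INPs. Their median log2 fold change was 0.51, with 39 of 50 above 0, while the median of all genes was 0.00. Between Grh+ and Ey+ INPs the median was 0.28 (32 of 50 above 0, all genes 0.03), and between Ey+ and D+ INPs it was 0.25 (34 of 50, all genes -0.02). The sign of these medians was the same with library size only, which moved the median of all genes to 0.15, 0.29 and -0.14 and that of the signalling genes to 0.66, 0.55 and 0.10. With that scaling the calls over all genes between Grh+ and D+ INPs split into 224 higher and 51 lower instead of 171 and 146, and those between Grh+ and Ey+ INPs into 83 and 13 instead of 17 and 7. Upper-quartile scaling split the first of these into 212 and 101. The highest of the 3 state means fell in Grh+ INPs for 29 of the 50 genes (58%, against 28.9% of all genes), in Ey+ INPs for 17 (34%, against 30.7%) and in D+ INPs for 4 (8%, against 40.4%). Some of these 29 Grh+ means were led by Grh+ replicate 2, which was 9.69, 6.14 and 16.8 times the mean of its partners in Wnt10, ths and Pvf3. In others, such as Egfr (0.951) and tkv (1.04), it was close to its partners. The highest state was not counted again without that library.

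The 3 Grh+ libraries lay above the 3 D+ libraries in 17 genes (34%, against 16.3% of all genes) and below them in none (all genes 13.3%). They lay above the Ey+ libraries in 12 genes (24%, against 11.9%) and below them in 1, aos (2%, against 7.79%). Ey+ lay above D+ in 10 genes (20%, against 14.1%) and below in 1, ptc (2%, against 15.1%). In 8 genes, Wnt2, Wnt6, hh, tkv, sax, wit, Egfr and Pvr, the Grh+ libraries were above all 6 others (16%, against 5.72%). For Wnt2, Wnt6, hh, wit and Pvr the Grh+ mean was also at least 2-fold above both other means (5 genes, 10%, against 3.71%). The D+ libraries were below all 6 others in 7 genes, Wnt2, Wnt4, fz3, fz4, Egfr, aos and stumps (14%, against 9.58%). An exact two-sided permutation test of 3 against 3 libraries cannot go below 0.1, which is the value of every such separation.

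**Figure D3:**
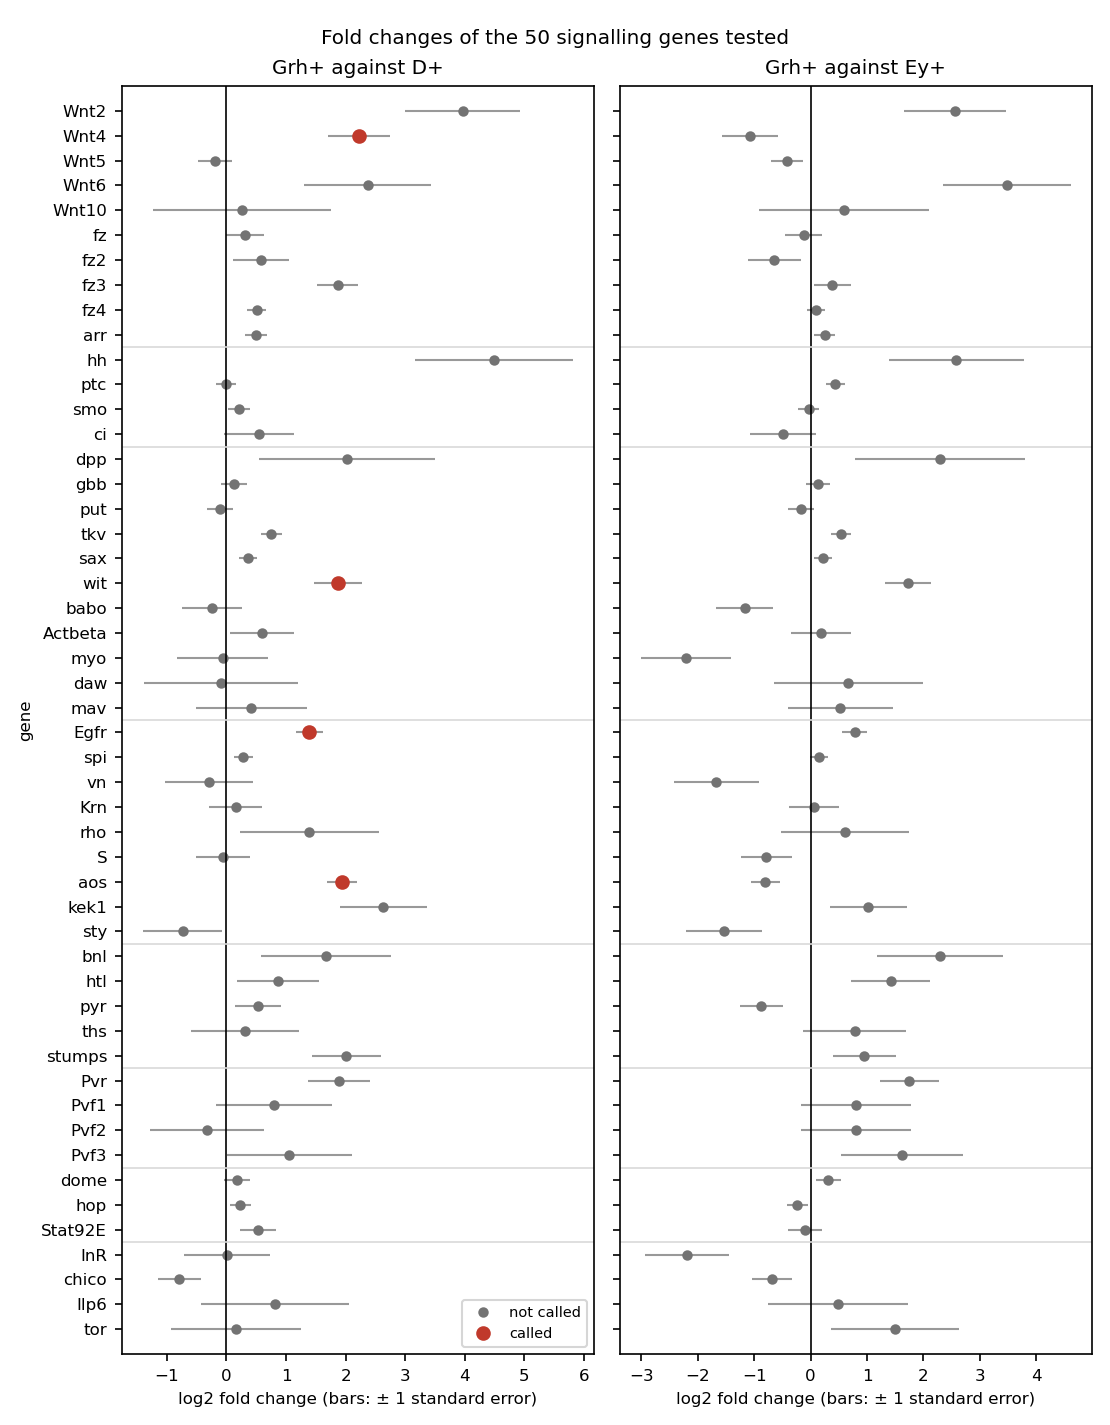
Log2 fold changes (points) with their standard errors (bars) of the 50 signalling genes tested, for Grh+ against D+ (left) and Grh+ against Ey+ INPs (right), by pathway. The 4 changed genes, Wnt4, wit, Egfr and aos, are marked on the left and none on the right, and the long bars belong to genes of a few RPM such as hh and dpp.

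The EGF pathway held 2 of the 4 genes that rose between D+ and Grh+ INPs, the receptor and a secreted inhibitor. Egfr, the only EGF receptor of the fly (2R, 21522420 to 21559977 of the Release 6 genome), was at 26.6, 16.1 and 18.9 RPM in D+ replicates 1 to 3, at 59.2, 52.0 and 50.2 RPM in the Grh+ replicates, and at 38.7, 27.5 and 27.7 RPM in the Ey+ replicates. The 3 states did not overlap, with Grh+ highest and D+ lowest. The mean was 20.5 ± 5.47 RPM in D+, 53.8 ± 4.75 in Grh+ and 31.3 ± 6.36 in Ey+ INPs (SD, n = 3 each). Egfr rose from D+ to Grh+ by 1.39 ± 0.23 log2 units (± SE, edgeR adjusted p = 0.011), and it was higher in Grh+ INPs than in the mean of the other states by 1.08 ± 0.19 (adjusted p = 0.0257). The difference between Grh+ and Ey+ INPs, 0.78 ± 0.22, did not pass the adjusted test (adjusted p = 0.286). Without Grh+ replicate 1 the first of these had an adjusted p of 0.0712, and without Grh+ replicate 3 one of 0.0521. The comparison with the mean of the other states was not called without D+ replicate 3 (0.0504), Grh+ replicates 1, 2 or 3 (0.191, 0.102 and 0.113) or Ey+ replicates 2 or 3 (0.098 and 0.0666). The paper's own list of genes highest in Grh+ INPs, drawn from the same libraries, already holds Egfr.

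The inhibitor is aos (Argos), a secreted protein that binds the ligand Spitz and is itself a target of EGF signalling (3L, 16470386 to 16483650). Its level was 20.2, 10.02 and 19.3 RPM in the D+ replicates, 62.5, 65.9 and 61.9 RPM in the Grh+ replicates and 131, 106 and 94.7 RPM in the Ey+ replicates. The states were in the order D+, Grh+, Ey+ with no overlap, and aos was the only signalling gene with all Ey+ libraries above all others (1 of 50, 2%, against 3.58% of all genes). It rose by 1.94 ± 0.26 log2 units from D+ to Grh+ INPs (adjusted p = 0.00567) and by 2.74 ± 0.27 from D+ to Ey+ INPs (adjusted p = 0.000664). These calls held under all 21 alternatives run, with adjusted p up to 0.0263 and 0.0106. The step between Grh+ and Ey+ INPs, -0.80 ± 0.25 for Grh+ against Ey+, did not pass (adjusted p = 0.349).

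The ligand spi itself varied little. It was at 260, 302 and 285 RPM in D+, 338, 336 and 357 RPM in Grh+ and 283, 305 and 336 RPM in Ey+ replicates. The Grh+ and D+ libraries did not overlap, but the difference was 0.28 ± 0.16 log2 units (adjusted p = 0.322), and Grh+ and Ey+ libraries overlapped. Of the genes that process Spitz, S (Star, its escort factor) was at 40.1 to 224 RPM and rho (the protease) at 0.0501 to 7.24 RPM. The other EGF ligands vn and Krn averaged 7.25 to 23.1 and 7.16 to 7.96 RPM over the states. kek1, a transmembrane inhibitor of the receptor and another known target, was at 4.84, 0.716 and 2.104 RPM in D+, 13.9, 23.04 and 10.8 in Grh+ and 14.7, 5.01 and 3.79 in Ey+ replicates. The Grh+ libraries were above the D+ libraries, although the fold change of 2.63 ± 0.73 had an adjusted p of 0.0616. kek1 was called with DESeq2 (adjusted p 0.00293), with library size only (0.0309) and without D+ replicate 1 (0.0265) or Ey+ replicate 1 (0.0427). Of the 5 EGF readouts listed (aos, kek1, sty, pnt and edl), only aos changed. The transcription factor pnt was at 4.90 to 13.5 RPM in Grh+ and 0.562 to 4.11 RPM in D+ libraries (log2 fold change 1.69 ± 0.72, adjusted p = 0.191), and the Ets antagonist edl was at 59.8 to 154 RPM throughout. None of the 17 other EGF and Ras pathway genes tested changed in any comparison.

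**Figure D4:**
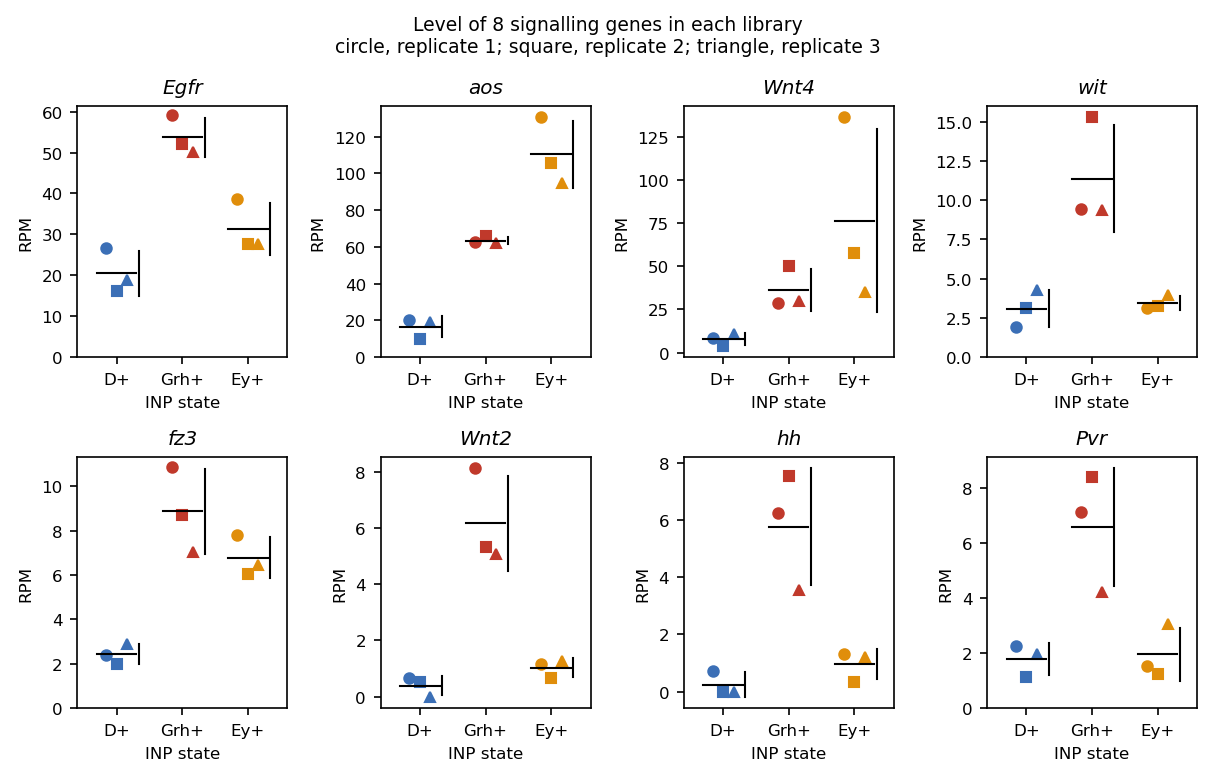
RPM of 8 signalling genes in each library (symbols, by replicate), with the mean (horizontal line) and SD (vertical line) of the 3 libraries of a state. Egfr, wit, Wnt2, hh and Pvr are highest in the 3 Grh+ libraries, aos is highest in the 3 Ey+ libraries, and Wnt4 and fz3 are lowest in the 3 D+ libraries.

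Wnt ligands bind Frizzled receptors and the co-receptor Arrow, and Wnt5 acts through Ryk-family receptors in axon guidance. Wnt4 (2L, 7255419 to 7277171) was at 8.64, 3.99 and 10.52 RPM in D+ replicates, 28.8, 50.01 and 29.7 RPM in Grh+ replicates and 136, 57.5 and 35.2 RPM in Ey+ replicates. All 6 later libraries were above the D+ libraries, and the Grh+ and Ey+ libraries overlapped. Wnt4 rose by 3.30 ± 0.54 log2 units from D+ to Ey+ INPs (edgeR adjusted p = 0.00943), a call that held under all 21 alternatives, with 2.62 without Ey+ replicate 1 (adjusted p = 0.00992). From D+ to Grh+ INPs it rose by 2.23 ± 0.52 (adjusted p = 0.0363). That call was lost without D+ replicates 1, 2 or 3 (adjusted p 0.0525, 0.0697 and 0.0675), Grh+ replicates 1, 2 or 3 (0.0893, 0.118 and 0.0868) or Ey+ replicate 2 (0.056), while the fold change stayed between 1.92 and 2.52 in these fits.

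Wnt5 was the most abundant Wnt per exon length (23.9 RPM per kb) and was spread alike over the states. It was at 135, 65.1 and 82.5 RPM in D+, 87.4, 71.7 and 88.6 RPM in Grh+ and 135, 113 and 83.2 RPM in Ey+ replicates, with overlap between all states. Wnt2 and Wnt6 were rare transcripts with a level in Grh+ INPs above all other libraries. Wnt2 was at 0.648, 0.511 and 0 RPM in D+, 8.12, 5.31 and 5.08 RPM in Grh+ and 1.18, 0.651 and 1.28 RPM in Ey+ replicates. Its difference between Grh+ and D+ INPs of 3.96 ± 0.97 log2 units had an adjusted p of 0.0434 (up to 0.173 over the alternatives run) but its level stayed under the 10 RPM threshold. Wnt6 was at 1.81, 1.23 and 0.0501 RPM in D+, 4.55, 7.19 and 4.34 RPM in Grh+ and 0.931, 0.451 and 0.0557 RPM in Ey+ replicates, with an adjusted p of 0.211 against D+ and 0.383 against Ey+ INPs. Wnt10 was at 2.27 RPM or less in every library.

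Among the receptors, fz3, itself a Wnt target gene, had the lowest level per kb of the 4 Frizzleds and was the only one of them with an adjusted p under 0.05. It was at 2.38, 1.99 and 2.91 RPM in D+, 10.9, 8.69 and 7.04 RPM in Grh+ and 7.82, 6.06 and 6.46 RPM in Ey+ replicates. All 3 D+ libraries were below the other 6. Against D+ INPs, fz3 differed by 1.87 ± 0.34 log2 units in Grh+ (adjusted p = 0.0157) and by 1.48 ± 0.34 in Ey+ INPs (adjusted p = 0.0316), but no state mean reached 10 RPM. Over the alternatives run, these adjusted p went up to 0.116 and 0.151. The other Frizzleds, fz, fz2 and fz4, averaged 13.8 to 63.7 RPM over the states. The co-receptor arr was at 82.8, 78.1 and 64.5 RPM in D+, 114, 93.5 and 112 RPM in Grh+ and 109, 79.9 and 79.8 RPM in Ey+ replicates, with Grh+ above D+ in every library and an adjusted p of 0.132. The other Wnt readouts nkd and Notum did not pass the test. Of 19 further Wnt pathway genes, 2 changed between D+ and Grh+ INPs (all genes 3.11%), both glypicans that bind extracellular ligands. dally was at 8.73, 2.505 and 4.11 RPM in D+, 25.6, 34.2 and 20.3 RPM in Grh+ and 10.3, 4.71 and 6.91 RPM in Ey+ replicates, and rose by 2.38 ± 0.48 (adjusted p = 0.0225). It was also higher in Grh+ INPs than in the mean of the other states, by 2.13 ± 0.38 (adjusted p = 0.0307). dlp went the other way, from 113, 62.4 and 111 RPM in D+ to 48.1, 49.5 and 40.5 RPM in Grh+ replicates, and fell by 1.05 (SE 0.23, adjusted p = 0.0292). The call of dlp depended on the scaling and the filter. Its value was -0.90 with library size only (adjusted p 0.0746), and -0.96 with upper-quartile scaling and -0.98 with at least 10 counts in every library, both below the fold threshold. The adjusted p was 0.0749 with only the 6 libraries of the 2 states and 0.0649 with the replicate number as a block.

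The Hedgehog ligand and its receptors showed different patterns. hh was at 0.735, 0 and 0 RPM in D+, 6.25, 7.54 and 3.55 RPM in Grh+ and 1.30, 0.351 and 1.23 RPM in Ey+ replicates, that is 58 to 176 counts in Grh+ against 0 to 22 in all other libraries. Grh+ was above all others, yet the fold change against D+ had an adjusted p of 0.0751 and that against Ey+ one of 0.618. The receptor and target gene ptc was the only signalling gene with all Ey+ libraries below the 6 others (1 of 50, against 2.47% of all genes), at 23.1, 25.9 and 25.7 RPM. It was at 28.7 to 38.4 RPM in D+ and Grh+ libraries, and its adjusted p for Ey+ against D+ INPs was 0.124. The transducer smo was at 61.6, 50.05 and 52.7 RPM in D+, 71.4, 49.1 and 69.9 RPM in Grh+ and 73.3, 60.1 and 61.0 RPM in Ey+ replicates, with overlap between all states. Of its exon length, 12.4% and 14.6% is shared with 2 genes on the opposite strand. Since reads were counted without strand, those within shared exons cannot be assigned to 1 gene. Ambiguous reads are among the summary lines left out here, so the level of smo may be understated. The effector ci was at 10.1 to 78.9 RPM, highest in Ey+ replicate 1. None of the 12 other Hedgehog pathway genes changed in any comparison.

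BMP and activin ligands signal through paired type I and type II receptors, and all receptors of this family but wit averaged more than 50 RPM. wit, a type II BMP receptor known from the motor neuron synapse (3L, 4064152 to 4071717), was the rare one. It was at 1.901, 3.12 and 4.26 RPM in D+, 9.42, 15.3 and 9.36 RPM in Grh+ and 3.10, 3.26 and 3.96 RPM in Ey+ replicates. The Grh+ libraries were more than 2-fold above every other library. wit rose by 1.88 ± 0.40 from D+ to Grh+ INPs (edgeR adjusted p = 0.0287) and was higher by 1.80 ± 0.33 than the mean of the other states (adjusted p = 0.0319), while 1.73 ± 0.40 against Ey+ INPs did not pass (adjusted p = 0.139). The call against D+ INPs was lost without Grh+ replicates 1, 2 or 3 (adjusted p 0.106, 0.116 and 0.0945) or Ey+ replicates 2 or 3 (0.0685 and 0.0526), and with only the 6 libraries of the 2 states (0.0827). The call against the mean of the other states was lost without Grh+ replicates 1, 2 or 3 (0.152, 0.198 and 0.113) or Ey+ replicates 1, 2 or 3 (0.0586, 0.115 and 0.0666). Of its exon length, 9.49% overlaps dib on the opposite strand.

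Like wit, the type I receptors tkv and sax were highest in Grh+ INPs, at far higher levels and by smaller margins. tkv was at 87.7, 64.1 and 82.5 RPM in D+, 139, 135 and 120 RPM in Grh+ and 101, 76.5 and 92.7 RPM in Ey+ replicates. Its difference from D+ INPs, 0.75 ± 0.18 log2 units, had an adjusted p of 0.0399 (up to 0.198 over the alternatives run) and was below the fold threshold. sax was at 81.7 to 108 RPM in D+, 117 to 123 RPM in Grh+ and 99.0 to 109 RPM in Ey+ libraries (adjusted p 0.196 against D+). The ligand gbb was at 100, 131 and 78.5 RPM in D+, 113, 101 and 123 RPM in Grh+ and 86.7, 104 and 117 RPM in Ey+ replicates, with no order of the states. dpp, another BMP ligand, stayed between 0 and 7.24 RPM.

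Of 14 further genes of this pathway tested, 2 changed between D+ and Grh+ INPs and both were higher in Grh+ (all genes 3.11% called and 1.68% called higher). Dad, the inhibitory SMAD and a standard BMP readout, was at 3.41, 1.38 and 0.501 RPM in D+, 13.8, 14.3 and 10.4 RPM in Grh+ and 8.44, 5.51 and 6.46 RPM in Ey+ replicates. It rose by 2.85 ± 0.59 from D+ to Grh+ INPs (adjusted p = 0.026), with no overlap between the states. tok (Tolkin), a Tolloid-family protease, was at 3.63, 1.18 and 2.304 RPM in D+, 22.8, 19.5 and 17.2 RPM in Grh+ and 5.40, 2.15 and 7.63 RPM in Ey+ replicates. It rose by 3.06 ± 0.53 (adjusted p = 0.0129) and was above the mean of the other states by 2.51 ± 0.41 (adjusted p = 0.0208). brk, a gene that BMP signalling represses, was at 3.58 to 59.1 RPM with all states overlapping. With any of the 3 Grh+ replicates left out, none of the 4 further pathway genes called between D+ and Grh+ INPs (dally, dlp, Dad and tok) kept its call. Their adjusted p without replicates 1, 2 and 3 were 0.0869, 0.0836 and 0.0645 for dally, 0.118, 0.0961 and 0.131 for dlp, 0.104, 0.0826 and 0.0788 for Dad and 0.0712, 0.051 and 0.0521 for tok. Against the mean of the other states, dally and tok were not called without Grh+ replicates 1, 2 or 3 either (0.138, 0.167 and 0.0799, and 0.138, 0.0956 and 0.0786). Outside the Grh+ libraries, dally also lost the call against D+ INPs without D+ replicate 3 (0.0689), Dad without D+ replicate 2 (0.0538), and dlp without D+ replicates 1 or 3 (log2 fold change -0.90, and adjusted p 0.0754) or Ey+ replicates 2 or 3 (0.0685 and 0.0518). The call of dally against the mean of the other states was also lost without D+ replicate 3 (0.0595) and Ey+ replicates 2 or 3 (0.072 and 0.0584).

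FGF and PVF signals act through the receptor tyrosine kinases Heartless, Breathless and Pvr, and the 9 genes of these pathways matched here were mostly rare. The FGF ligand pyr (Pyramus) was the exception, at 22.8, 13.04 and 11.9 RPM in D+, 20.9, 28.0 and 19.9 RPM in Grh+ and 67.9, 34.1 and 23.9 RPM in Ey+ replicates. The Ey+ libraries were above the D+ libraries, with an adjusted p of 0.0592. Its receptor htl was at 0.951, 5.06 and 0.902 RPM in D+, 4.14, 4.84 and 3.61 RPM in Grh+ and 1.12, 1.903 and 1.67 RPM in Ey+ replicates, so that D+ replicate 2 was above all Grh+ libraries. stumps, the adaptor of the FGF receptors, was at 0.735, 1.07 and 1.55 RPM in D+, 2.52, 7.28 and 3.79 RPM in Grh+ and 1.61, 2.35 and 3.06 RPM in Ey+ replicates, with D+ below all others (adjusted p 0.0694 for Grh+ against D+ INPs). Pvr was at 2.25, 1.12 and 1.95 RPM in D+, 7.14, 8.43 and 4.22 RPM in Grh+ and 1.55, 1.25 and 3.06 RPM in Ey+ replicates. Grh+ was above all others, and the adjusted p was 0.064 against D+ and 0.324 against Ey+ INPs. Its ligand Pvf2 was at 1.47, 0.716 and 3.26 RPM in D+, 0.893, 3.17 and 0.245 RPM in Grh+ and 0.496, 0.701 and 1.28 RPM in Ey+ replicates. Pvf1 and Pvf3 reached 2.87 and 9.21 RPM, both in Grh+ replicate 2.

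In the JAK/STAT pathway the receptor and kinase were present and the ligands were close to 0. The receptor dome was at 26.5, 23.3 and 25.7 RPM in D+, 35.6, 22.9 and 27.0 RPM in Grh+ and 18.3, 21.8 and 28.5 RPM in Ey+ replicates. The Janus kinase hop was at 169, 136 and 150 RPM in D+, 186, 153 and 196 RPM in Grh+ and 233, 208 and 187 RPM in Ey+ replicates, with Ey+ above D+ (adjusted p 0.136). Stat92E was at 54.8 to 196 RPM. The ligand upd2 had 7, 0 and 0 counts in D+, 1, 21 and 0 counts in Grh+ and 0, 1 and 11 counts in Ey+ replicates, and no upd gene was above 1.37 RPM in any library. Socs36E, a feedback inhibitor and readout of the pathway, was level, at 107 to 143 RPM in all 9 libraries. None of the other 8 genes listed for this pathway changed.

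In the insulin pathway the level of the receptor depended on a single library. The receptor InR was at 53.4, 39.9 and 41.1 RPM in D+, 45.4, 62.2 and 27.3 RPM in Grh+ and 489, 77.5 and 48.2 RPM in Ey+ replicates, so that Ey+ replicate 1 was 7.78 times the mean of its partners. Ey+ differed from D+ INPs by 2.19 ± 0.75 log2 units (edgeR adjusted p = 0.0998), and 0.52 without Ey+ replicate 1 (adjusted p = 0.514). InR was called higher in Ey+ INPs without Ey+ replicate 3 (2.66, adjusted p 0.0431) and with DESeq2 (2.25, adjusted p 0.0108). The adaptor chico was at 160, 58.0 and 143 RPM in D+, 62.1, 77.4 and 68.9 RPM in Grh+ and 148, 110 and 76.3 RPM in Ey+ replicates, and 10.6% of its exon length lies opposite an antisense RNA. Grh+ against D+ INPs gave -0.79 for chico (adjusted p 0.218), and without D+ replicate 2 it was called lower in Grh+ INPs (-1.11, adjusted p 0.0376). Ilp6 was at 3.33, 0 and 0.351 RPM in D+, 1.87, 3.55 and 1.10 RPM in Grh+ and 1.61, 1.903 and 1.17 RPM in Ey+ replicates, and tor was at 2.18 RPM or less. Of 19 further insulin pathway genes tested, 2 kinases changed from D+ to Ey+ INPs, where 3.94% of all genes did. Pdk1 was at 644, 248 and 509 RPM in D+ and 1373, 1079 and 952 RPM in Ey+ replicates, a rise of 1.28 ± 0.31 (adjusted p = 0.0396). Akt was at 233, 94.1 and 155 RPM in D+ and 884, 437 and 290 RPM in Ey+ replicates, a rise of 1.74 ± 0.43 (adjusted p = 0.0406). With library size only Pdk1 was not called (adjusted p 0.0602), and with only the 6 libraries of the 2 states neither was (0.127 and 0.117). Both calls were lost without D+ replicates 2 or 3, any Grh+ replicate or Ey+ replicates 1 or 2, and Pdk1 also without Ey+ replicate 3 (adjusted p 0.0578). In these fits Pdk1 had an adjusted p of 0.0324 with a log2 fold change of 0.99 without D+ replicate 2, 0.0837 without D+ replicate 3, 0.0844, 0.0613 and 0.0819 without the Grh+ replicates and 0.127 without Ey+ replicate 1 or 2. Akt had 0.0863, 0.101, 0.0754, 0.0599, 0.0761, 0.126 and 0.0977 in the same order. The target Thor was at 1.75 RPM or less.

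Counted together, 4 of the 95 further pathway genes tested changed between Grh+ and D+ INPs (4.21%, against 3.11% of all genes), 2 between Ey+ and D+ INPs (2.11%, against 3.94%) and 2 between Grh+ INPs and the mean of the other states (2.11%, against 0.961%). Their median log2 fold change between Grh+ and D+ INPs was 0.19, against 0.51 for the ligands, receptors and partners. None changed between Grh+ and Ey+ INPs, where DESeq2 called 3, dally, tok and Akt. In that comparison 17 of the 95 had an unadjusted p under 0.05, against 859 of all 10193 genes. None of the 4 FGF or 2 PVF pathway genes changed. The number for Ey+ against D+ INPs was 5 without D+ replicate 1, 1 without D+ replicate 2 or Grh+ replicate 3, and 0 without D+ replicate 3, Grh+ replicate 1 or 2, or Ey+ replicate 1 or 2. Of the 17 readouts and feedback inhibitors listed over all pathways, aos and Dad changed between D+ and Grh+ INPs and aos alone between D+ and Ey+ INPs.

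Ey+ replicate 1 was also high for genes of other pathways. The activin-like ligand myo (Myoglianin), which signals through babo, was at 74.9, 13.5 and 55.2 RPM in D+, 40.1, 65.3 and 31.9 RPM in Grh+ and 458, 128 and 49.8 RPM in Ey+ replicates. babo was at 209, 61.5 and 207 RPM in D+, 132, 164 and 108 RPM in Grh+ and 505, 252 and 152 RPM in Ey+ replicates. Neither passed the test for Ey+ against D+ INPs (myo 2.15 ± 0.79, adjusted p = 0.122, babo 0.93 ± 0.51, adjusted p = 0.271), and without this library the log2 fold changes were 0.93 and 0.38. The EGF ligand vn was at 53.9, 10.4 and 5.18 RPM in the Ey+ replicates and at 3.79 to 11.05 RPM elsewhere, and its Ey+ against D+ difference of 1.38 ± 0.74 log2 units (adjusted p = 0.266) became -0.16 without Ey+ replicate 1. The inhibitor sty (Sprouty) was at 220, 58.6 and 28.3 RPM in the Ey+ replicates and 21.5 to 89.9 RPM elsewhere, and its 0.81 ± 0.66 (adjusted p = 0.47) became -0.39. elav, a neuronal gene, was at 3652 RPM in this library and 1164 and 631 RPM in the other Ey+ libraries. The other 8 neuron markers matched summed to 120 RPM in Ey+ replicate 1 and 135 RPM in Grh+ replicate 2, against 21.7 to 52.0 RPM in the remaining 7 libraries. Over all genes tested, the ratio of Ey+ replicate 1 to its partners rose with exon length (Spearman's rho 0.307 across genes, which are not independent replicates, and 0.35 across the signalling genes). The same rho was 0.371 in D+ replicate 1, -0.285 in D+ replicate 2 and -0.328 in Ey+ replicate 3. The part of neurons or of exon length in these values was not tested.

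**Figure D5:**
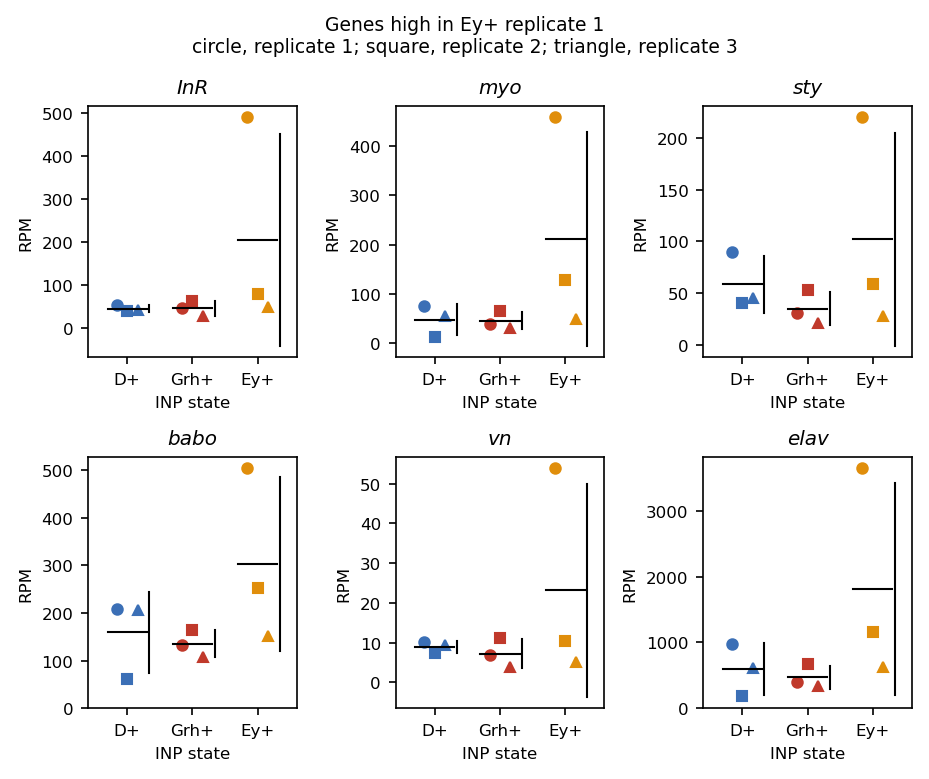
RPM of InR, myo, sty, babo, vn and the neuronal gene elav in each library (symbols, by replicate), with the mean (horizontal line) and SD (vertical line) of a state. In each panel Ey+ replicate 1 is the highest of the 9 libraries. Ey+ replicate 2 also lies above all D+ and Grh+ libraries for InR, myo, babo and elav (myo at 128 RPM, against 74.9 RPM or less). Ey+ replicate 3 lies in the range of D+ and Grh+.

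Markers of other cells also differed between the states. The 4 tracheal markers matched (trh, Osi6, serp and verm) summed to 59.4 to 76.6 RPM in Grh+, 17.0 to 26.6 RPM in D+ and 11.6 to 16.7 RPM in Ey+ libraries. verm and serp, chitin deacetylases, carried most of this and were higher in Grh+ INPs than in the mean of the other states (log2 fold changes 2.11 and 2.02, adjusted p 0.00159 and 0.0329). The paper also lists verm among the genes highest in Grh+ INPs. trh, the defining tracheal factor, was at 4.77 to 11.1 RPM in Grh+ and 2.45 to 5.01 RPM elsewhere, and Osi6 was at 1.30 RPM or less. The 10 glial markers summed to 1453 to 1779 RPM in Grh+, 916 to 1875 in D+ and 1328 to 1595 in Ey+ libraries, a sum led by nrv2 and Eaat1. Their median was 11.5 to 14.1 RPM in Grh+, 2.81 to 4.84 RPM in D+ and 6.94 to 9.39 RPM in Ey+ libraries. Of them, wrapper and Gat changed between D+ and Grh+ INPs (by 3.04 and 2.13 log2 units, adjusted p 0.0458 and 0.00786). Against D+ INPs, moody was higher by 3.05 in Grh+ and 3.03 in Ey+ INPs (adjusted p 0.0112 and 0.00954), but no state mean reached 10 RPM. Gat was highest in Ey+ INPs, at 77.0 to 148 RPM against 9.09 to 16.1 RPM in Grh+ libraries (Grh+ against Ey+ -3.10, adjusted p 0.00534). Among the neuron markers, VGlut was higher in Grh+ than in D+ INPs (2.69, adjusted p 0.0478), at 6.66 to 14.7 against 0.648 to 3.43 RPM. repo, the defining glial factor, was at 1.33 to 6.04 RPM in all libraries. The 8 hemocyte markers summed to 3.67 to 31.6 RPM, highest in Grh+ replicate 2, and He and eater were at 0 in all D+ libraries. The 6 muscle markers summed to 7.41 to 79.9 RPM, again highest in Grh+ replicate 2, and the 4 fat body markers to 0.162 to 3.30 RPM. The 6 optic lobe markers summed to 287 to 338 RPM in Grh+, 535 to 635 RPM in D+ and 452 to 497 RPM in Ey+ libraries. That sum was led by Optix, which averaged 499 RPM in D+, 258 in Grh+ and 406 in Ey+ INPs, and Vsx1 had the same order. By contrast, slp1 and hth had their lowest mean in D+ INPs, with D+ and Grh+ libraries overlapping, and tll and l(1)sc had theirs in Ey+ INPs. The part of other cells in the values of the signalling genes was not tested.

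Without D+ replicate 2, Grh+ replicate 2 and Ey+ replicate 1, a fit chosen after seeing the data, aos kept its calls (1.70 for Grh+ and 2.37 for Ey+ against D+, adjusted p 0.0031 and 0.000456). Egfr and Wnt4 kept theirs between Grh+ and D+ INPs as well (1.31 and 1.66, adjusted p 0.021 and 0.022), and Egfr kept the call against the mean of the other states (1.15, adjusted p 0.0333). wit lost both of its calls (1.66, adjusted p 0.0674, and 1.53, adjusted p 0.112), and chico was called lower in Grh+ than in D+ INPs (-1.16, adjusted p 0.0248).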

How the data were processed

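DigiTag libraries with oligo-dT priming and molecular tags were sequenced, 3 for each INP state. The authors deposited whole-number counts per gene, one table per library. Per the labels and the study's methods, BWA 0.7.12 served to remove ribosomal reads, TopHat2 2.1.1 to align, the molecular tags to mark duplicates, bedtools 2.26.0 to mask small RNAs and pseudogenes, and HTSeq 0.6.1 to count without strand on FlyBase gene models. DESeq2 1.12.4 was their test. Whether duplicates once marked were also dropped is not given in the sources used here. Summary lines that name no gene held 34.7% to 53.24% of each table and were left out.

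The tests were run with edgeR 4.0.16 and limma 3.58.1 under R 4.3.3. The lowest TMM factor was 0.741 (Ey+ replicate 1) and the highest 1.13 (Grh+ replicate 2). All 9 libraries entered 1 quasi-likelihood model with a coefficient per state after edgeR's filter by group, which kept 10193 genes, and p-values were adjusted by Benjamini-Hochberg over all of them in each of 4 contrasts. Standard errors are the fold change divided by the square root of F. RPM is counts per 1000000 of TMM-scaled library size, summarized as mean and SD of 3 libraries. The common biological coefficient of variation was 0.477, and no 2 libraries agreed within sampling noise. Intervals from counts alone were not used. The procedure was also run on simulated counts with large changes and a smaller spread between libraries than in these data. That run therefore does not measure its error rates here.

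Exon lengths were taken from the BDGP6.54 annotation and symbols from a gene name table (16208 of 16364 identifiers, 99%), on the Release 6 assembly. Values per library are given for genes called in any contrast, genes whose state did not overlap both others by at least 2-fold of means, and the highest genes of each pathway per kb. Values of further genes were chosen after their values were seen. The members and all lists (further pathway genes, readouts, cell markers) were chosen with earlier results of these data known. Symbols of these lists with no match were Wls, WntD, Med, phl, Gap1, cnk, lat, Tor, para and dys. Alternatives were 3 other scalings, DESeq2 1.42.0, no filter or one of 10 counts per library, a block for the replicate number, leaving out each library, fitting only the 6 libraries compared, other thresholds, and, chosen after seeing the data, 2 libraries per state. Sequences were not analysed here.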

Additional observations from a re-analysis of the deposited data

How the results depend on the processing

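The calls of aos (against D+ INPs) and of Wnt4 (Ey+ against D+ INPs) held under all 21 alternatives run for each. Of the counts of changed signalling genes (4, 0, 2 and 2 for Grh+ against D+, Grh+ against Ey+, Ey+ against D+, and Grh+ against the mean of the others), leaving out each library in turn gave 1 to 5, 0 to 0, 2 to 4 and 0 to 2. For the further pathway genes (4, 0, 2 and 2) it gave 0 to 4, 0 to 0, 0 to 5 and 0 to 3. DESeq2 called 2 signalling genes between Grh+ and Ey+ and 5 between Ey+ and D+ INPs, and 3 and 8 further pathway genes. The DESeq2 count over all genes between Ey+ and D+ INPs is not given here, so the 5 and 8 cannot be set against it. Between Grh+ and Ey+ INPs DESeq2 also called more of all genes than edgeR did, as given below. With only the 6 libraries of a comparison, 1 signalling gene was called between Grh+ and Ey+ INPs, and 2, 2 and 0 further pathway genes in Grh+ against D+, Grh+ against Ey+ and Ey+ against D+ INPs. Adjusted p alone gave 7 of 50 signalling genes and 8 of 95 further genes for Grh+ against D+ INPs, against 635 of all 10193 genes. For Ey+ against D+ INPs it gave 8 of 95 further genes, against 810 of all 10193. Library size only gave 1 further gene between Grh+ and Ey+ INPs. With 2 libraries per state, 1 gene of each kind was called against the mean of the others. The cause of these shifts was not tested.

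Whether the replicate numbers pair the samples is not given by the labels, and the check run here cannot settle it. Deviations of same-numbered libraries from their state means correlated at -0.311 to 0.52 across genes, and those of differently numbered libraries at -0.51 to 0.487. Deviations within a state cancel out, so these correlations are not independent of each other. With the replicate number as a block, 2 signalling genes (Egfr and aos) were called between Grh+ and D+ INPs, where Wnt4 and wit had adjusted p of 0.072 and 0.0566. With the block, 1 signalling gene was called against the mean of the others and 1 further pathway gene between Ey+ and D+ INPs, which was neither Pdk1 nor Akt (adjusted p 0.0547 and 0.0554).

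Signs changed for Ey+ against D+ INPs without Ey+ replicate 1 in vn (-0.16, up to 1.85 without another library) and sty (-0.39, up to 1.27), and with 2 libraries per state in babo (-0.0117), vn (-0.28), sty (-0.60) and dally (-0.12). Over all genes, the 317, 24 and 402 calls became 183, 137 and 138 with the 6 libraries of a comparison, and DESeq2 called 172 genes between Grh+ and Ey+ INPs. The largest gene by level was spi per kb, and 9 of the 10 highest signalling genes per kb were also among the 10 highest by RPM. Genes of a few RPM, such as hh, Wnt2 and Wnt6, rest on 0 to 176 counts per library, which limits their tests.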
